A study of Mus musculus with 9 samples.

Results

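Hox genes encode homeodomain transcription factors that give cells of the embryo their position along the body axis. The genes described here are the 39 gene names of the deposited count table that consist of Hox, a cluster letter from a to d and a group number, out of 54456 gene names in all. They comprise 11 Hoxa, 10 Hoxb, 9 Hoxc and 9 Hoxd genes. RNA was sequenced from aggregates of mouse mammary epithelial cells of genotype WT, with 3 libraries each of mixed luminal and basal (Balu), luminal-only (Lu) and basal-only (Ba) aggregates. The mixed aggregates held a 50% mixture of both cell types. Luminal and basal cells had been purified by flow cytometry, and the gate, the age of the mice and the number of mice are not given in the labels. All 9 aggregate samples lay in 80% Matrigel about 100 µm from heparin sulfate beads of 100 to 150 µm that had been soaked in 100 µg/mL FGF10, a growth factor for mammary epithelium, and no group without FGF10 was part of the design. RNA was taken after 56 h of migration according to the treatment label and after 55 h according to the titles. The study set out to compare the parts that basal and luminal cells play in moving as a group. Nothing in the labels tells whether libraries of a group are separate animals or cultures, so p-values measure only the spread between these libraries, which may be technical.

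In mammals the Hox genes lie in 4 clusters, each on its own chromosome, and genes at the same place in different clusters form a paralogue group. Genes of the low-numbered groups are expressed early and towards the head of the embryo, and genes of the high-numbered groups later and towards the tail. The homeodomain binds DNA, commonly together with the TALE homeodomain cofactors of the Pbx, Meis and Pknox families, while Polycomb complexes keep the clusters silent and Trithorax complexes keep them active. In the mouse mammary gland, combined loss of Hoxa9, Hoxb9 and Hoxd9 impairs growth of the gland in pregnancy, Hoxa5 affects growth of the epithelium, and Hoxc8 acts where the mammary placodes form.

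The homeobox is the stretch of 180 bases that encodes the homeodomain. It is shown for Hoxb2, the Hox gene with the most counts over the 9 libraries, and for Hoxb6, a Hox gene called when no filter on low counts was applied. The sequences are the coding strand of the GRCm38 reference with GENCODE M21 transcripts, both on the plus strand, and the capitals mark the 18 bases that encode the core of the DNA-recognition helix.
Hoxb2 (chr11:96352985-96353164): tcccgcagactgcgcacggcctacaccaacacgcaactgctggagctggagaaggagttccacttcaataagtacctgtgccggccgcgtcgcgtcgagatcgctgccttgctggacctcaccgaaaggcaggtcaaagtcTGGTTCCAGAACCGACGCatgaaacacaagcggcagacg
Hoxb6 (chr11:96300689-96300868): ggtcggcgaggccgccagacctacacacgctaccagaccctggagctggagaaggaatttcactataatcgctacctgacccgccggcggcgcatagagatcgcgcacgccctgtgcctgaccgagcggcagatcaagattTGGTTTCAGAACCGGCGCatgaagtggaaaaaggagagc
Across the 39 genes the homeoboxes were identical at 46.1% to 93.9% of aligned bases, with a median of 61.1% over 741 pairs. Hoxb2 and Hoxb3 shared 75% of bases, Hoxb3 and Hoxb4 73.9%, and Hoxb2 and Hoxb4 63.3%. The closest match of Hoxb3 was its paralogue Hoxa3 at 93.9%, that of Hoxb4 was Hoxa4 at 82.8%, and that of Hoxb2 was Hoxd3 at 77.8%. The longest run of identical aligned bases in any pair was 52 bases, between Hoxb4 and Hoxa6. Reads that lie within such a run cannot be assigned to 1 gene, and the read length is not given in the sources used here.

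The libraries held 15585324 to 19164405 counts, so that a count of 3 corresponded to 0.152 to 0.187 CPM, the unit of counts scaled to the normalised library total. The basal marker list of 7 genes summed to 5998 to 7153 CPM in mixed, 1399 to 2753 CPM in luminal and 9148 to 10469 CPM in basal libraries. The luminal list of 7 genes summed to 8176 to 9701 CPM in mixed, 5787 to 8598 CPM in luminal and 2614 to 2927 CPM in basal libraries. The mixed libraries thus lay between the pure groups for the basal list, while for the luminal list they overlapped the luminal range and reached above it. Krt19 stood at 3997 to 5014 CPM in mixed against 1070 to 1637 CPM in luminal libraries, and Kit at 467 to 548 against 186 to 296 CPM. Krt18 went the other way, at 1321 to 1637 CPM in mixed against 2133 to 3722 CPM in luminal libraries. So did Muc1, at 156 to 169 against 206 to 268 CPM. For Krt8, Elf5 and Prlr the mixed and luminal ranges overlapped. Count columns carried 3 series of codes whose meaning is not given in the sources used here. Series A held the 3 mixed libraries and basal 2, series B held luminal 1, basal 1 and basal 3, and series C held luminal 2 and luminal 3. No series holds both mixed and luminal libraries, so a fit with code series as a term reaches that comparison only through basal 2 in series A and luminal 1 in series B. In luminal 3, 50.1% of gene names had a count, against 33.9% in mixed 3, the highest and lowest of the 9 libraries.

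Counts of Hox genes in these aggregates came mostly from the Hoxb cluster. The 39 genes together held 2327 counts, of which Hoxb genes held 90.3%, Hoxc genes 6.62%, Hoxa genes 2.11% and Hoxd genes 0.988%. Hoxb2, Hoxb3 and Hoxb4, neighbours on chromosome 11, held 1976 counts or 84.9%, and the other 36 genes held 351 counts or 15.1%. In single libraries the share of those 36 genes ran from 0.358% in luminal 2 to 26.7% in mixed 2. Only these 3 genes had a count in all 9 libraries, as 28% of all gene names did, and only these passed the filter on low counts, 3 of 39 against 33.1% of all gene names. A further 27 genes had at least 1 count, and 9 were at 0 in every library, against 37.7% of all gene names. Among the genes at 0 were Hoxa7, Hoxa11, Hoxc10, Hoxc11, Hoxd3, Hoxd10, Hoxd12 and Hoxd13.

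**Figure D1:**
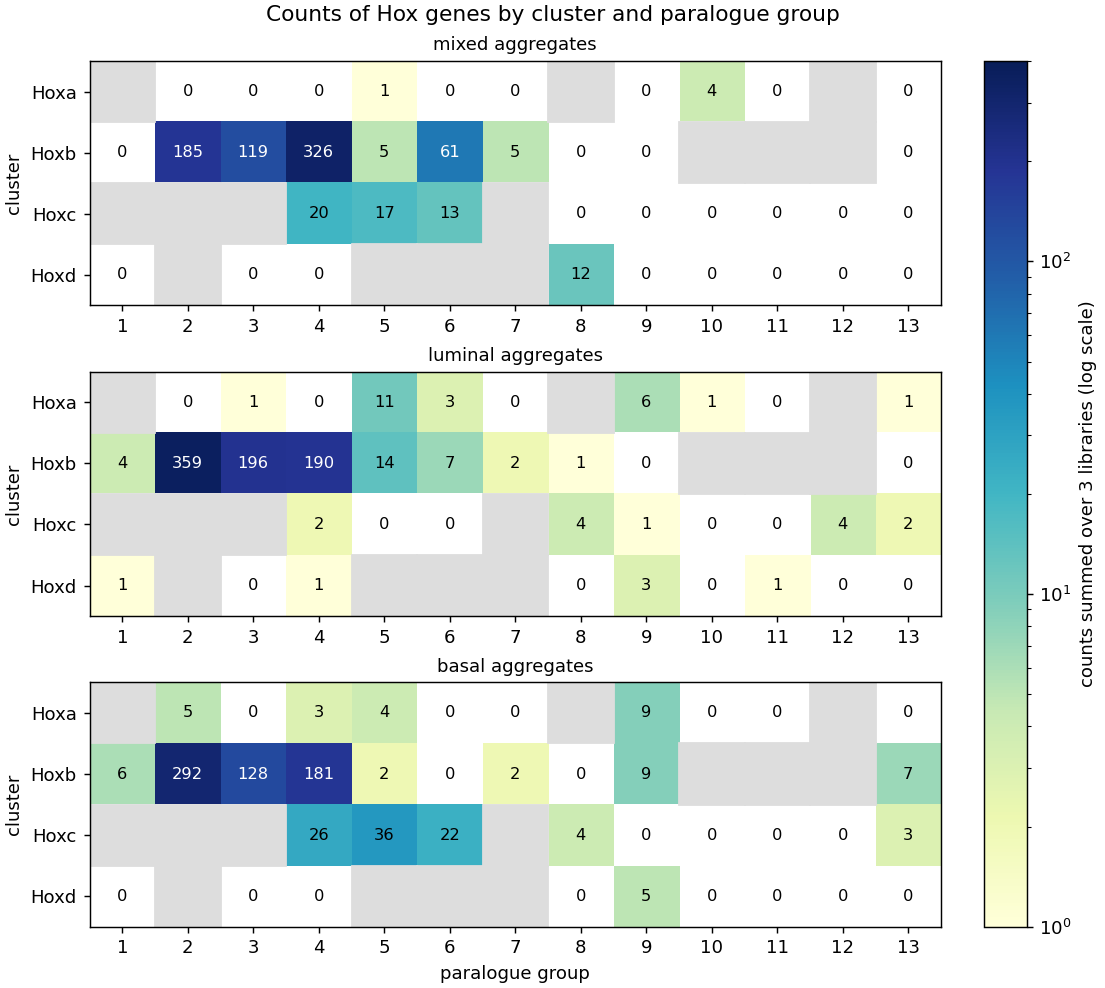
Counts of Hox genes summed over the 3 libraries of each group, mixed above luminal above basal, with paralogue group on the horizontal and cluster on the vertical axis and a log colour scale. Grey squares hold no plotted gene, and white squares are genes at 0. Hoxb2, Hoxb3 and Hoxb4 hold 84.9% of all Hox counts.

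Through Hoxb2 to Hoxb4, paralogue groups 1 to 4 held 87.9% of Hox counts, groups 5 to 8 held 9.71% and groups 9 to 13 held 2.41%. Group 2 alone held 36.1%, group 4 held 32.2%, group 3 held 19.1%, and group 1, the most anterior, held 0.473%. Groups 1 to 4 held 94.5% of the counts of the Hoxb cluster, but 31.2% in Hoxc, 18.4% in Hoxa and 8.7% in Hoxd, where most counts lay in groups 5 and above. To compare genes of different length, CPM were divided by the summed exon length in kilobases. On that scale the Hoxb cluster summed to 4.67 ± 0.716 in mixed, 4.56 ± 0.487 in luminal and 3.54 ± 0.161 CPM per kb in basal aggregates (SD, n = 3 each). The Hoxc cluster summed to 0.363 ± 0.161 in mixed, 0.151 ± 0.262 in luminal and 0.608 ± 0.129 CPM per kb in basal aggregates. Hoxa genes summed to 0.0360 ± 0.0624 in mixed, 0.231 ± 0.351 in luminal and 0.156 ± 0.215 CPM per kb in basal aggregates. Hoxd genes summed to 0.0897 ± 0.155 in mixed, 0.0522 ± 0.0905 in luminal and 0.0441 ± 0.0409 CPM per kb in basal aggregates. For Hoxa and Hoxd genes the SD was near or above the mean in every group. The summed Hox level was 13.6 to 17.0 CPM in mixed, 15.5 to 16.6 CPM in luminal and 13.2 to 13.7 CPM in basal libraries.

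Hoxb2 patterns the hindbrain and its facial motor neurons in the mouse. It lies at chr11:96241351-96244838 on the plus strand (mm39). Its counts were 85, 61 and 39 in mixed libraries 1 to 3, 109, 152 and 98 in luminal libraries 1 to 3, and 126, 68 and 98 in basal libraries 1 to 3. Scaled to library size these were 4.86, 3.75 and 2.12 CPM in mixed, 5.88, 9.02 and 6.10 CPM in luminal, and 6.39, 3.75 and 5.63 CPM in basal libraries. All 3 mixed libraries lay below all 3 luminal libraries, which was so for 26.1% of the tested genes, while the basal range overlapped both.

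Hoxb3, a hindbrain gene that is also active in blood progenitors, lies at chr11:96214152-96238756 on the plus strand. Its level was 3.83, 1.23 and 1.74 CPM in mixed, 4.59, 3.56 and 3.17 CPM in luminal, and 2.59, 1.54 and 2.82 CPM in basal libraries. The counts behind these were 67, 20 and 32 in mixed, 85, 60 and 51 in luminal, and 51, 28 and 49 in basal libraries. The luminal libraries all lay above the basal ones, a position that 23.2% of tested genes held, and the mixed libraries reached from below the basal range into the luminal range.

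Hoxb4, known for expanding blood stem cells when overexpressed, lies at chr11:96209093-96212464 on the plus strand and had the highest length-scaled level of the Hox genes averaged over the 9 libraries, 1.71 CPM per kb, against 1.51 for Hoxb2 and 0.655 for Hoxb3. That order came from the mixed libraries, with 2.43 ± 0.442 CPM per kb for Hoxb4 and 1.03 ± 0.395 for Hoxb2. Hoxb2 had the higher mean in luminal aggregates, 2.01 ± 0.502 against 1.42 ± 0.431 CPM per kb for Hoxb4, and in basal aggregates, 1.51 ± 0.390 against 1.28 ± 0.394 CPM per kb. Hoxb4 counts were 126, 81 and 119 in mixed, 85, 66 and 39 in luminal, and 58, 80 and 43 in basal libraries. In CPM these were 7.21, 4.98 and 6.48 in mixed, 4.59, 3.92 and 2.43 in luminal, and 2.94, 4.41 and 2.47 in basal libraries. All mixed libraries lay above the other 6 libraries, a position held by 5.02% of tested genes, while 14.5% lay above basal and 25% above luminal libraries. The midpoint of the luminal and basal means was 3.46 CPM, below each mixed library. For Hoxb2 that midpoint was 6.13 CPM, above each mixed library, and for Hoxb3 it was 3.04 CPM, within the mixed range.

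**Figure D2:**
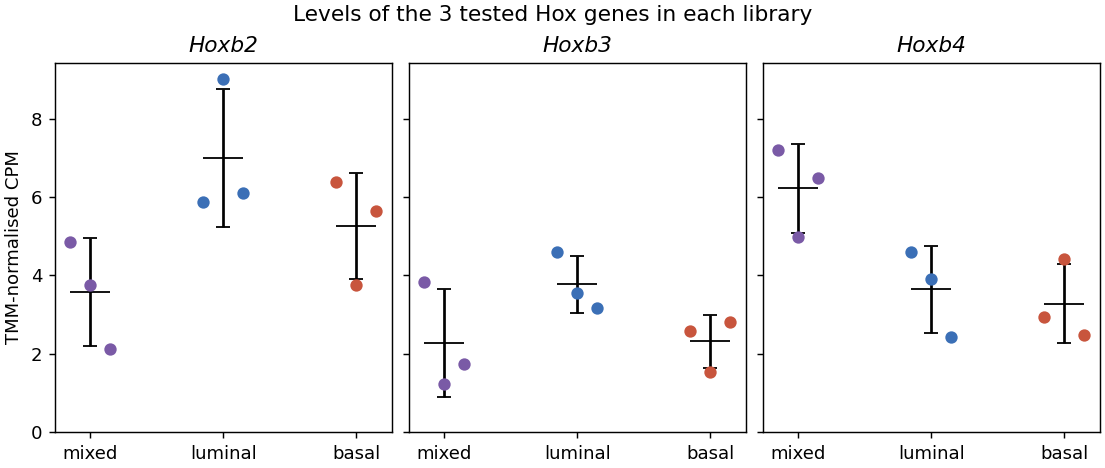
TMM-normalised CPM of Hoxb2, Hoxb3 and Hoxb4 in the 9 libraries, with mixed left of luminal left of basal. Points are libraries, and bars are the mean and SD of 3 libraries. Hoxb4 is at 4.98 to 7.21 CPM in mixed and at 2.43 to 4.59 CPM in the other 6 libraries.

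None of the 3 tested Hox genes differed between groups by edgeR's quasi-likelihood test with Benjamini-Hochberg adjustment over 18051 genes, threshold 0.05. The share of all tested genes called was 27.1% for luminal against basal, 13.7% for mixed against basal and 29.4% for mixed against luminal. Without adjustment, the number of Hox genes with p under 0.05 was 0, 0 and 1 in these 3 comparisons, against 37.5%, 29.5% and 41.7% of all tested genes. DESeq2 and limma-voom each called 0 of the 3, and each gave 0, 1 and 1 without adjustment.

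The closest to the threshold were Hoxb2 and Hoxb4. Hoxb2 averaged 3.58 ± 1.38 CPM in the mixed group and 7 ± 1.75 CPM in the luminal group (SD, n = 3 per group), a log2 difference of -0.97 ± 0.43 (SE) with a 95% interval of -1.91 to -0.02 and an adjusted p of 0.11 by edgeR. Hoxb4 averaged 6.23 ± 1.14 CPM in the mixed group and 3.27 ± 1.01 CPM in the basal group, a log2 difference of 0.93 ± 0.43 with an interval of -0.02 to 1.88 and an adjusted p of 0.18 by edgeR. Against luminal aggregates at 3.64 ± 1.11 CPM, mixed Hoxb4 differed by 0.77 ± 0.43, interval -0.18 to 1.72, adjusted p of 0.2. With the code series as a term in the fit, Hoxb4 in mixed against basal aggregates stood at a log2 difference of 0.50 ± 0.60. In mixed against luminal aggregates the same fit turned Hoxb4 to -0.26 ± 0.85 and put Hoxb2 at -0.034 ± 0.87.

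The other 6 differences had intervals that reached well to both sides of 0. Between luminal and basal aggregates, Hoxb2 differed by 0.41 ± 0.43 (interval -0.52 to 1.34, basal mean 5.26 ± 1.36 CPM) and Hoxb4 by 0.15 ± 0.43 (interval -0.79 to 1.10). Hoxb3 averaged 3.77 ± 0.730 CPM in the luminal group and 2.32 ± 0.679 CPM in the basal group, a log2 difference of 0.70 ± 0.56 with an interval of -0.53 to 1.94. In mixed aggregates, at 2.27 ± 1.38 CPM, it differed from basal ones by -0.03 ± 0.56 (upper bound 1.21) and from luminal ones by -0.73 ± 0.56 (interval -1.97 to 0.50). Mixed Hoxb2 differed from basal by -0.55 ± 0.43 (interval -1.49 to 0.38). The adjusted p by edgeR for these 6 lay between 0.35 and 0.98.

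**Figure D3:**
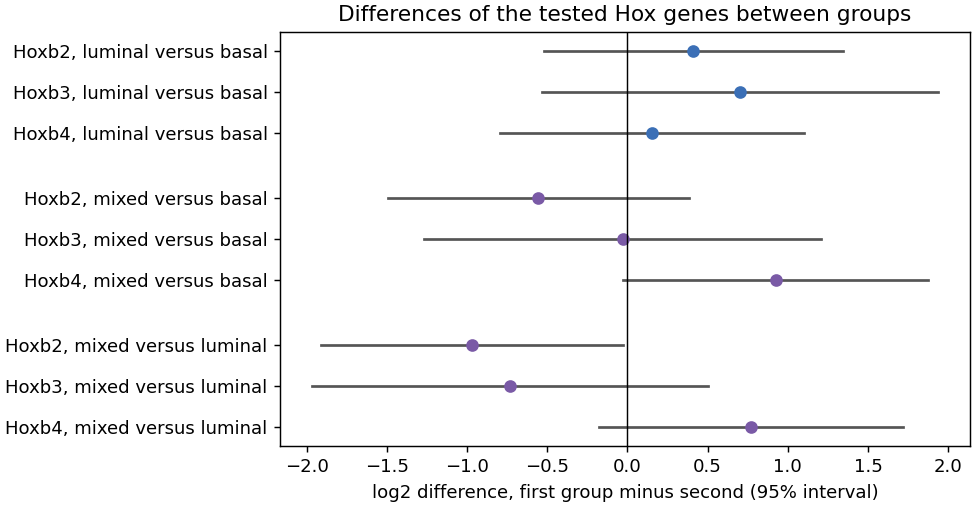
Log2 differences of Hoxb2, Hoxb3 and Hoxb4 (points) with 95% intervals (lines) for luminal against basal, mixed against basal and mixed against luminal aggregates. The horizontal axis is the first group minus the second, and the line at 0 is no difference. The interval of Hoxb2 in mixed against luminal, -1.91 to -0.02, is the only one that leaves out 0.

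Reads were counted without regard to strand, and Hoxb3os, an antisense transcript, shares 27.3% of the exon bases of Hoxb2 and 52.9% of those of Hoxb3. Reads of these stretches cannot be told apart, while Hoxb4 shares no exon base with another gene name. Hoxb3os itself had 38, 37 and 42 counts in mixed, 26, 34 and 27 in luminal, and 28, 22 and 18 in basal libraries, and did not pass the test (adjusted p by edgeR 0.34 to 0.62 over the 3 comparisons). Per kilobase of exon that no other gene name covers, a scale added after the data were seen, Hoxb4 stood at 2.43 ± 0.442 in mixed, 1.42 ± 0.431 in luminal and 1.28 ± 0.394 CPM per kb in basal aggregates. Hoxb2 stood at 1.41 ± 0.543, 2.76 ± 0.691 and 2.07 ± 0.537 CPM per unshared kb in mixed, luminal and basal aggregates, and Hoxb3 at 1.13 ± 0.689, 1.89 ± 0.365 and 1.16 ± 0.339. On this scale the order over the 9 libraries was Hoxb2 at 2.08, Hoxb4 at 1.71 and Hoxb3 at 1.39 CPM per unshared kb.

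The balance between Hoxb4 and Hoxb2 differed among libraries, a ratio chosen after the values were seen and given with no test. There were 1.48, 1.33 and 3.05 Hoxb4 counts per Hoxb2 count in mixed libraries, 0.780, 0.434 and 0.398 in luminal libraries, and 0.460, 1.18 and 0.439 in basal libraries. The ratio was above 1 in all 4 libraries of code series A, the 3 mixed ones and basal 2, and below 1 in the other 5. Basal 2 thus stood with the mixed libraries and apart from basal 1 and basal 3. The sum of a list of 6 immune genes also set basal 2 apart, with 47.2 CPM in basal 2, 4.57 CPM in basal 1 and 4.02 CPM in basal 3. Cd74 and Lyz2 held most of the basal 2 sum, at 27.3 and 15.4 CPM. Among basal libraries Adgre1 was highest in basal 1 and Csf1r in basal 3. The part of the immune list in the ratio was not tested. That list summed to 42.1 to 65.0 CPM in mixed and 22.3 to 53.8 CPM in luminal libraries, where Cd68 made up most of it (20.9 to 50.2 CPM). All 6 genes had a count in basal 2 and 4 in basal 1 and in basal 3. Cd74 stood at 26.3 to 36.4 CPM in the 4 libraries of series A and at most 1.88 CPM elsewhere, and Lyz2 at 8.30 to 33.7 CPM against at most 0.152 CPM, the same split as the ratio. For Ptprc, Adgre1, Csf1r and Cd68 the range of series A overlapped that of the other libraries.

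**Figure D4:**
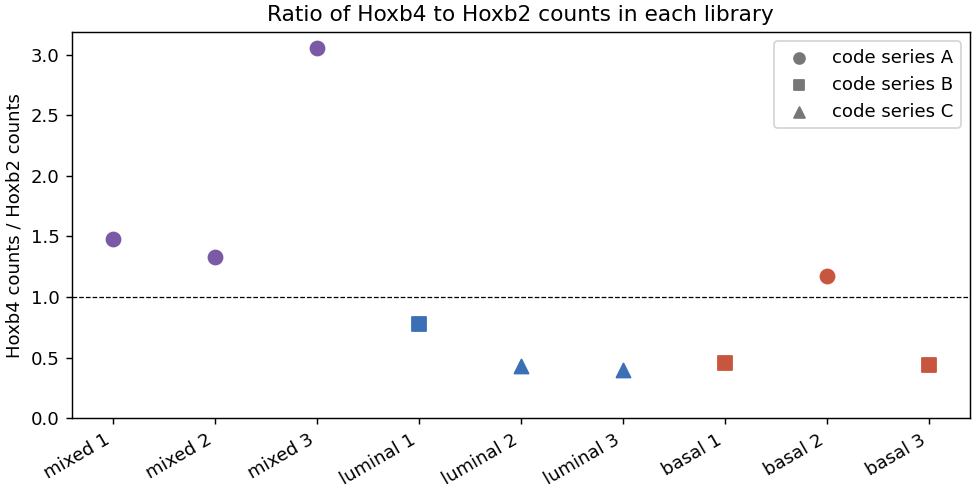
Hoxb4 counts divided by Hoxb2 counts in each of the 9 libraries, mixed left of luminal left of basal. The marker shape gives the code series, and the dashed line is a ratio of 1. The 4 libraries of series A lie between 1.18 and 3.05 and the other 5 between 0.398 and 0.780.

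Below the filter, 4 genes showed counts that were uneven between groups, and they were chosen after their values were seen. Hoxb6 (chr11:96183302-96192395) had 7, 10 and 44 counts in mixed, 1, 0 and 6 in luminal, and 0 in all basal libraries. With 61 counts against 0, it was at least 21.6-fold higher in mixed than in basal aggregates, taking 3 counts over the group as the floor, and at least 9.28-fold higher without mixed 3, with 17 counts. Hoxc5 (chr15:102875878-102925861) had 9, 8 and 0 counts in mixed, 0 in all luminal, and 17, 3 and 16 in basal libraries. Of its exon bases, 5.37% are shared with Hoxc10, which had no count. Hoxc5 was at least 11.2-fold lower in luminal than in basal aggregates and at least 5.6-fold higher in mixed than in luminal aggregates. With 1 library of the counted group left out, the lowest bounds were 9.06-fold (without basal 3) and 3.96-fold (without mixed 1). These bounds, like those below, take the counts of the counted group as observed. They allow for counting error only in the group at 0, and not for the spread between libraries.

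Its neighbour Hoxc6 also had no luminal count, but its highest libraries were others. Hoxc6, which helps to pattern the thorax, lies at chr15:102906689-102920313 and had 2, 10 and 1 counts in mixed, 0 in all luminal, and 5, 15 and 2 in basal libraries. It was at least 6.83-fold lower in luminal than in basal aggregates, and at least 4.28-fold higher in mixed than in luminal aggregates. These bounds rested on basal 2 and mixed 2. Without basal 2 it was at least 3.24-fold lower, and without mixed 2 its 3 mixed counts equalled the floor and gave no bound. Hoxc6 was at 0 in all luminal libraries with a count in each of the other 6, a pattern described after its counts were seen. It was found for 0.159% of gene names with a count, and Hoxc5, at 0 in mixed 3, did not have it. For Hoxc6 the pattern rested on 1 count in mixed 3 and 2 in mixed 1 and in basal 3. The share is thus no measure of how unusual Hoxc6 is. Hoxc4, the Hoxc gene with the highest length-scaled level (0.115 CPM per kb over 9 libraries), lies at chr15:102927366-102945278. It had 0, 5 and 15 counts in mixed, 0, 0 and 2 in luminal, and 8, 10 and 8 in basal libraries, so the mixed range spanned the other groups.

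**Figure D5:**
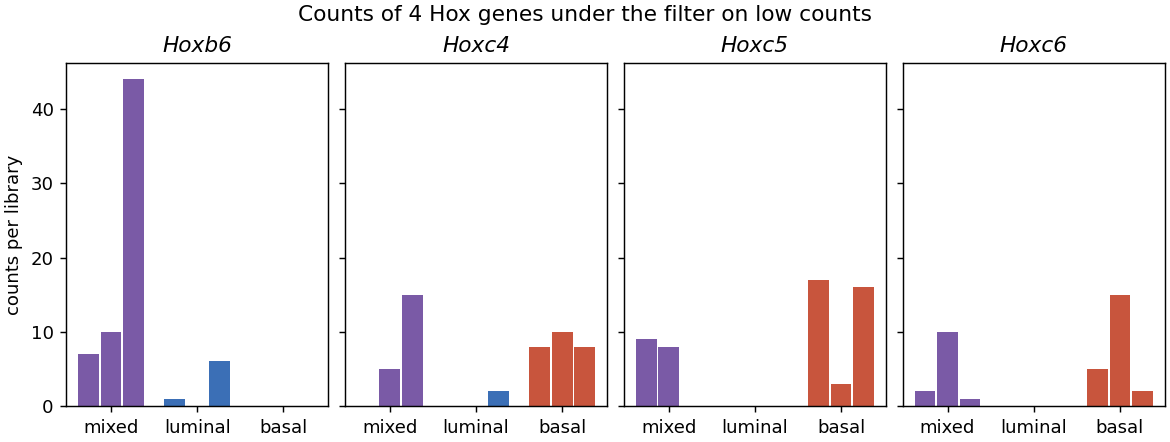
Counts per library of Hoxb6, Hoxc4, Hoxc5 and Hoxc6, with 3 bars per group for libraries 1 to 3 and mixed left of luminal left of basal. A missing bar is a count of 0. Hoxb6 has no count in basal libraries, and Hoxc5 and Hoxc6 have none in luminal libraries.

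In a fit without the filter, over 33929 genes and 30 Hox genes, 1 Hox gene was called in each of 3 directions by edgeR. Hoxc5 was lower in luminal than in basal aggregates (adjusted p of 0.014), as 8.45% of all genes were. Hoxb6 was higher in mixed than in basal aggregates (adjusted p of 0.0042), as 5.05% were, and Hoxc5 was higher in mixed than in luminal aggregates (adjusted p of 0.041), as 8.8% were. Hoxc6 stood at 0.057 and Hoxc4 at 0.23 for luminal against basal. When each library was left out of that fit in turn, an alternative added after the data were seen, the adjusted p ran from 0.0044 to 0.075 for Hoxc5 in luminal against basal. It ran from 0.0022 to 0.068 for Hoxb6, with 0.068 reached without mixed 3, and from 0.015 to 0.14 for Hoxc5 in mixed against luminal. With code series as a term in that fit they were 0.28, 0.24 and 0.56. Within series B, luminal 1 had 0 counts of Hoxc5 against 17 and 16 in basal 1 and basal 3. Within series A, the mixed libraries had 7, 10 and 44 counts of Hoxb6 against 0 in basal 2. For Hoxc5 in that series the mixed libraries had 9, 8 and 0 counts against 3 in basal 2. Each of these comparisons has a single library on one side, and the part of the code series was not tested.

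By group means, some marker lists followed the order of the Hoxc cluster level and others did not. A list of 9 fibroblast genes summed to 50.6 to 71.9 CPM in mixed, 6.77 to 11 CPM in luminal and 121 to 153 CPM in basal libraries. Fbln1 held most of the basal sum, at 29.2 to 33.1 CPM in mixed, 0.237 to 1.18 CPM in luminal and 90.5 to 131 CPM in basal libraries. In every other member of the list the mixed and basal ranges overlapped. Dcn, for one, stood at 4.47 to 8.98 CPM in mixed, 1.89 to 5.10 CPM in luminal and 4.19 to 7.41 CPM in basal libraries. Of its 9 genes, 8 or 9 had a count in each mixed library, 4 to 7 in each luminal library and 8 in each basal library. The stromal genes Lum and Dpt reached at most 1.11 CPM in any library. The 3 cell cycle genes summed to 498 to 598 CPM in mixed, 11.5 to 19.3 CPM in luminal and 567 to 797 CPM in basal libraries. The nerve and glia list ran the other way, with 309 to 353 CPM in mixed, 480 to 601 CPM in luminal and 338 to 383 CPM in basal libraries, and the immune list, given above, did not follow the groups. Single libraries did not always follow the group order. Luminal 3 stood at 0.454 CPM per kb over the Hoxc cluster, above mixed 1 at 0.214 and mixed 3 at 0.341, with lower fibroblast and cell cycle sums. Basal 2 had the highest of these sums and the highest Hoxc level, 0.756 CPM per kb. Its Hoxc5 counts were 3, against 17 and 16 in basal 1 and basal 3. The part of fibroblasts and of dividing cells in the Hoxc counts was not tested, and in bulk RNA fewer cells of a type and less RNA per cell cannot be told apart.

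The remaining Hox genes were scattered over few libraries. Of the 36 genes that were not tested, 9 were at 0, 12 had counts in 1 library and 15 in at least 2 libraries. Of the 12, luminal 3 alone held 8 (Hoxa3, Hoxa6, Hoxa13, Hoxc9, Hoxc12, Hoxd1, Hoxd4 and Hoxd11, with 1 to 4 counts each). Basal 2 held Hoxa2 with 5 counts and Hoxb13, a prostate gene, with 7 counts, luminal 2 held Hoxb8 with 1, and mixed 2 held Hoxd8 with 12. Hox genes with a count numbered 7, 12 and 6 in mixed, 6, 4 and 22 in luminal, and 8, 15 and 13 in basal libraries. Without luminal 3, 22 Hox genes had a count in any library, against 30 with it. Luminal counts outside Hoxb2 to Hoxb4 numbered 70 with luminal 3 and 9 without it. Luminal 3 also had the most gene names with a count, 27307, and the part of that in the Hox genes seen there was not tested.

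The highest length-scaled Hoxa gene was Hoxa5, which affects mammary epithelial growth in the mouse and lies at chr6:52178734-52181567 on the minus strand. It had 0, 1 and 0 counts in mixed, 2, 0 and 9 in luminal, and 0, 4 and 0 in basal libraries, or 0.0562 CPM per kb on average. The highest Hoxd gene, Hoxd8 (chr2:74534959-74538277), reached 0.0299 CPM per kb on average through its 12 counts in mixed 2. Of the group 9 genes linked to the mammary gland, Hoxa9 had 0, 0 and 0 counts in mixed, 0, 0 and 6 in luminal, and 0, 6 and 3 in basal libraries. Hoxb9 had no count in mixed or luminal libraries and 1, 2 and 6 in basal libraries. Set against the floor of 3 counts, this was 2.83-fold lower in mixed and 2.79-fold lower in luminal than in basal aggregates. Basal 3 carried these values, since without it the 3 remaining counts equalled the floor. Neither difference was called in the fit without the filter (adjusted p by edgeR of 0.28 for mixed and 0.27 for luminal). Hoxd9 had 3 counts in luminal 3, 2 in basal 2 and 3 in basal 3. Hoxc8, the placode gene, had 4 counts in luminal 3 and 4 in basal 2 and was at 0 elsewhere.

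The other genes with counts in at least 2 libraries were near the floor. Hoxb5 had 1, 4 and 0 counts in mixed, 5, 0 and 9 in luminal, and 0, 0 and 2 in basal libraries. Hoxb1, a gene of the hindbrain, had 4 counts in luminal 3, 4 in basal 1 and 2 in basal 3. Hoxb7 had 5 counts in mixed 2, 2 in luminal 3 and 2 in basal 3. Hoxa10, a uterine gene, had 4 in mixed 2 and 1 in luminal 3, Hoxa4 had 2 in basal 2 and 1 in basal 3, and Hoxc13, a hair and nail gene, had 2 in luminal 3 and 3 in basal 2. None of these counts passed 9 in a library. Set against the floor of 3 counts, Hoxb1 was 1.89-fold lower in mixed than in basal aggregates, a value that could not be given without basal 1. Hoxa10 was 1.41-fold higher, a value that could not be given without mixed 2. Neither difference was called in the fit without the filter (adjusted p by edgeR of 0.35 for Hoxb1 and 0.41 for Hoxa10).

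Other gene names lie between the Hox genes, 46 in all, and 3 of them were tested, each in the Hoxb cluster. Gm11539, between Hoxb13 and Hoxb9 at chr11:96139459-96140015, had more counts than the 39 Hox genes together in every mixed and basal library and in luminal 2. There were 485, 376 and 564 in mixed, 226, 298 and 219 in luminal, and 330, 466 and 384 in basal libraries. It averaged 27.2 ± 3.82 CPM in the mixed group and 14.5 ± 2.85 CPM in the luminal group, a log2 difference of 0.91 ± 0.24 (adjusted p by edgeR of 0.017). With code series as a term the difference was 0.75 ± 0.47 and no longer passed (adjusted p of 0.61). Gm11536 had 26, 10 and 3 counts in mixed, 47, 28 and 16 in luminal, and 24, 7 and 24 in basal libraries, with adjusted p of 0.35 to 0.81 by edgeR. The microRNA gene Mir10a had 1 count and Mir10b 2, while Mir196a-1, Mir196a-2, Mir196b and Mir615 were at 0. Small RNAs are not captured well by mRNA libraries.

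Among genes that act with or upon Hox genes, some were called in each comparison, at shares near those of all genes in most directions. Of 58 listed cofactors and regulators, 54 were tested, and 5 were higher and 11 lower in the luminal than in the basal group, or 9.26% and 20.4% against 12.8% and 14.4% of all tested genes. The median log2 difference of the list was -0.08, against -0.02 over all tested genes. In mixed against basal aggregates 4 were higher and 5 lower (median -0.13, against -0.07 over all genes), or 7.41% and 9.26% against 6.39% and 7.33% of all genes. In mixed against luminal aggregates 9 were higher and 7 lower (median -0.13, against -0.05), or 16.7% and 13% against 15.2% and 14.2% of all genes. With code series as a term, 3 were higher and 6 lower in luminal against basal, 1 lower in mixed against basal, and 1 higher in mixed against luminal aggregates. The matching shares of all genes in that fit were 7.09% and 6.8%, 1.79%, and 2.05%.

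Among the 9 TALE cofactors, 3 were lower in the luminal than in the basal group (33.3%, against 14.4% of all tested genes), Pbx3 and Pknox2 among them. Pbx3, which binds DNA together with Hox proteins, averaged 16.4 ± 4.56 CPM in mixed, 5.27 ± 1.22 CPM in luminal and 22 ± 2.82 CPM in basal aggregates. It was lower in luminal than in basal aggregates by a log2 difference of -2.06 ± 0.30 (adjusted p by edgeR of 0.00031). Pknox2, a related cofactor, averaged 5.70 ± 1.82 CPM in mixed, 6.22 ± 2.06 CPM in luminal and 18.1 ± 2.07 CPM in basal aggregates. It was lower than basal in both other groups (adjusted p by edgeR of 0.0061 for luminal and 0.01 for mixed).

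The Polycomb repressive complex 2 list of 10 genes had 2 members higher and 3 lower for luminal against basal aggregates, or 20% and 30% against 12.8% and 14.4% of all tested genes. For mixed against luminal aggregates 4 were higher and 2 lower, or 40% and 20% against 15.2% and 14.2%. With code series as a term, 0 were higher and 0 lower in mixed against luminal aggregates, against 2.05% and 0.67% of all genes. In luminal against basal aggregates that fit left 1 higher and 3 lower, against 7.09% and 6.8% of all genes. Ezh2, its histone methyltransferase, averaged 64.3 ± 15.7 CPM in mixed, 26.6 ± 1.65 CPM in luminal and 72.6 ± 5.72 CPM in basal aggregates (luminal against basal -1.45 ± 0.20, adjusted p by edgeR of 0.00021). Phf1, an accessory protein of that complex, went the other way, at 13.2 ± 1.63 CPM in mixed, 38.8 ± 1.52 CPM in luminal and 15.2 ± 3.22 CPM in basal aggregates (1.35 ± 0.22, adjusted p of 0.00075). Of the 19 listed genes of the Polycomb repressive complex 1, 2 were higher and 2 lower for luminal against basal aggregates (10.5% each). Of 11 Trithorax genes, 2 were lower (18.2%), Dpy30 and Men1, named after their values were seen, and neither passed with code series as a term (adjusted p by edgeR of 0.53 and 0.24).

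Gmnn encodes geminin, which restrains DNA replication licensing and has been linked to Hox proteins. It averaged 64.5 ± 9.83 CPM in mixed, 8.70 ± 1.63 CPM in luminal and 60.9 ± 21.3 CPM in basal aggregates, and was lower in luminal than in basal aggregates (log2 difference -2.81 ± 0.27, adjusted p by edgeR of 1.6e-05). The 3 cell cycle genes moved with Gmnn and Ezh2, with 498 to 598 CPM in mixed, 11.5 to 19.3 CPM in luminal and 567 to 797 CPM in basal libraries, and their part in these differences was not tested. Rara, the retinoic acid receptor alpha, which activates anterior Hox genes in the embryo, averaged 77.7 ± 19.6 CPM in mixed, 103.9 ± 23.7 CPM in luminal and 43.7 ± 5.41 CPM in basal aggregates (luminal against basal 1.25 ± 0.23, adjusted p of 0.0017). All 6 named regulators kept their luminal against basal call with the code series as a term (adjusted p by edgeR of 0.0011 to 0.027). In mixed against luminal aggregates, that term kept Gmnn (adjusted p of 0.042), while Pbx3 (1.35 ± 0.63, against 1.64 ± 0.29 without the term), Ezh2 (0.99 ± 0.41, against 1.27 ± 0.20) and Phf1 (-0.91 ± 0.39, against -1.55 ± 0.22) kept their direction with larger SE and no longer passed (adjusted p by edgeR of 0.44, 0.36 and 0.37). In mixed against basal aggregates it kept Pknox2 (adjusted p of 0.034), while Rara stood at 0.64 ± 0.30, against 0.83 ± 0.23, and no longer passed (adjusted p of 0.31).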

How the data were processed

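Raw counts for 9 libraries were deposited by gene name, made by the authors with featureCounts 2.0.1 on exons summed per gene name, read pairs counted and strand not used, per the file headers. The deposited table also gives the summed exon length in bases, another value used to scale levels. Trim Galore, Subread and build mm39 are named in the submitters' processing notes. No source used here gives the aligner or annotation release. Libraries were stranded mRNA per the labels' protocols.

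The fits used edgeR 4.0.16 in R 4.3.3. Genes passed filterByExpr, libraries were scaled by TMM, 3 groups were fitted over 9 libraries with 6 residual degrees of freedom, and 3 contrasts were tested by robust two-sided quasi-likelihood tests, with p-values adjusted by Benjamini-Hochberg over 18051 genes and a threshold of 0.05. SE is the log2 difference divided by the square root of F. Scripts were tested on simulated data. Alternatives used limma 3.58.1 and DESeq2 1.42.0. The Hox genes and all lists were chosen with earlier results of these data known. The rule for named genes took every Hox gene, and up to 6 called regulators of at least 10 CPM with the highest absolute log2 difference between luminal and basal aggregates. No duplicate libraries were found (lowest chi-square per gene in a group 11.1). The homeobox sequences come from GRCm38 and their coordinates are not those of mm39. Some genes and sequences are not reported here.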

Additional observations from a re-analysis of the deposited data

How the results depend on the processing

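The 3 tested Hox genes stayed uncalled in all 18 alternatives (scaling, filter, tool, groups fitted, replicate block, code series, and libraries left out). Counts of called Hox genes changed where weakly counted genes entered. The number lower in luminal than in basal aggregates was 0 and became 1 without the filter, and 0 to 1 when 1 library was left out, each time Hoxc5, and 1 with basal 2 and mixed 3 both left out. The number higher in mixed than in basal aggregates became 1 without the filter and 0 to 1 with 1 library left out, each time Hoxb6. The number higher in mixed than in luminal aggregates became 1 without the filter, 0 to 1 with 1 library left out, and 1 with basal 2 and mixed 3 left out, each time Hoxc5. A smaller group lowers the filter, so that 4 to 6 Hox genes were tested there.

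Some directions reversed. For luminal against basal aggregates, Hoxb2 was -0.032 with code series, and Hoxb4 ran from -0.040 (without luminal replicate 1) to 0.42 as libraries were left out, with -0.012 without basal replicate 3. For mixed against basal aggregates, Hoxb3 was 0.555 with code series, ran from -0.65 to 0.25 as libraries were left out, and was 0.25 without mixed replicate 2, 0.11 without mixed replicate 3, 0.04 without basal replicate 1 and 0.13 without basal replicate 3. For mixed against luminal aggregates Hoxb4, at 0.77 in the main analysis, was -0.26 with code series. Cause was not tested.

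Over the 18 alternatives Hoxb4 in mixed against basal aggregates ran from 0.50 to 1.18, with adjusted p of 0.081 to 0.76. Hoxb2 in mixed against luminal aggregates ran from -1.26 to -0.03, with adjusted p of 0.057 to 1. Code series as a term reduced all called genes to 2507 from 4899 in luminal against basal, to 853 from 2477 in mixed against basal and to 491 from 5309 in mixed against luminal aggregates. Mixed against basal called 4004 genes with DESeq2, 5120 without basal 2, 1176 without basal 1, 963 without basal 3 and 3903 without the filter. Mixed against luminal called 2967 without luminal 3 and 3243 without luminal 1. Library size alone moved the median log2 difference of all genes to -0.17 in luminal and -0.22 in mixed against basal aggregates, with 1750 genes higher and 3249 lower in luminal (2304 and 2595 with TMM) and 951 higher and 1882 lower in mixed (1153 and 1324 with TMM). No filter moved the median in mixed against luminal to -0.31. The replicate block left 0 Hox genes called (Hoxb4 in mixed against basal 0.96, adjusted p by edgeR 0.21), and title numbers did not pair the libraries (same-number r -0.162 to 0.157).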
